A study of Homo sapiens with 6 samples.

Results

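The response to interferon-gamma was followed in the empty-vector (EV) cultures of PC3, an established line derived from a bone metastasis of human prostate carcinoma. The 3 samples whose treatment label gives an empty vector were taken, of 6 samples in all. They were an untreated culture labelled 48 h, a culture given 100 ng/ml interferon-gamma for 24 h and a culture given the same dose for 48 h. All 3 had been transfected with the vector that carries no insert, plated in multiwell plates and left overnight before treatment, per the labels. The other 3 samples carried a BTN1A1 expression vector under the same conditions. Total RNA was counted on the nCounter PanCancer IO 360 panel, which reads a fluorescent barcode from each captured RNA molecule without amplification, and all 770 probes were examined. Each group was 1 sample, and nothing in the labels tells separate cultures from repeats of a culture.

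Interferon-gamma is a cytokine of T cells and natural killer cells. It binds a receptor of IFNGR1 and IFNGR2 chains, which activates the kinases JAK1 and JAK2 and, through them, STAT transcription factors that bind GAS elements in promoters. A second wave follows through IRF1 and through STAT2 with IRF9, factors that bind ISRE elements. In tumour cells the response is known for antigen presentation on class I and class II molecules, for chemokines that draw T cells, for antiviral proteins, and for PD-L1 and IDO1, which restrain T cells.

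The untreated EV library held 286341 counts in total, the 24 h library 441611 and the 48 h library 403510. Counts were scaled to the geometric mean of 20 housekeeping genes, which was 485, 542 and 440 counts in that order. None of the 770 probes was at 0 counts in any of these libraries, and the lowest counts were 3, 5 and 1. Immune markers gave the level of background: 37 T and NK cell probes had a median of 20.7, 20.4 and 20.6 scaled counts, and 38 B cell and myeloid probes 29, 18.1 and 22.9. Their summed levels were highest in the untreated library, at 1028, 800 and 857 for the first list and 1357, 905 and 1046 for the second. The 9 endothelial and fibroblast markers had medians of 36.3, 35.3 and 35.5 scaled counts and sums of 829, 1147 and 860. STAT3, which PC3 is known to have lost, was at 20, 10 and 17 counts, no higher than these markers, and CD44, an adhesion receptor abundant in PC3, was at 1478, 2892 and 1722. The libraries labelled BTN1A1 went against the PC3 label on both genes, with STAT3 at 383, 593 and 444 counts and CD44 at 28, 21 and 35.

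Interferon-gamma was followed by large increases in a limited set of genes. At 24 h, 82 of 662 genes (12.4%) were at least 2-fold higher than in the untreated library and 45 (6.8%) at least 2-fold lower. At 48 h, 99 of 673 (14.7%) were at least 2-fold higher and 23 (3.42%) at least 2-fold lower. Levels under 20 scaled counts were raised to 20 for these comparisons, which set 1 library against another and carry no test. Increases of at least 16-fold were found for 13 genes at 24 h and 16 at 48 h, and decreases of at least 4-fold for 4 genes and 1 gene. Both comparisons share the untreated library, and the 24 h comparison also holds a difference in culture time. In bulk RNA, fewer cells with a transcript and less transcript per cell cannot be told apart.

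With the 24 h and 48 h libraries taken as repeats of treatment, edgeR's quasi-likelihood test called 69 of 669 genes higher (10.3%) and 7 lower (1.05%) at an adjusted p under 0.05. Of the 69, 16 rose by a log2 difference of 4 or more, 46 by 2 to 4, and 7 by less than 2. Together these 69 genes took 5.13% of all counts without interferon-gamma, 23% with it at 24 h and 29.9% at 48 h. The starting levels were mostly low: 24 of the 69 had under 50 scaled counts without interferon-gamma, 8 of them under 20, and 5 had 500 or more. The median over all tested genes was -0.11. Scaled to total counts instead, the same test gave 63 higher and 98 lower and a median of -0.68, so that 39.1% of its calls were increases against 90.8% with housekeeping scaling. The test has 2 residual degrees of freedom and its fit includes the libraries labelled BTN1A1. Fitted to the EV libraries alone it called 74 genes higher and 16 lower, among them all of the 69 and all of the 7. Its p-values reflect no more than how the 24 h and 48 h libraries of each vector differ, as each untreated group is a single library without a measured spread. That difference holds any effect of time together with technical scatter.

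**Figure D1:**
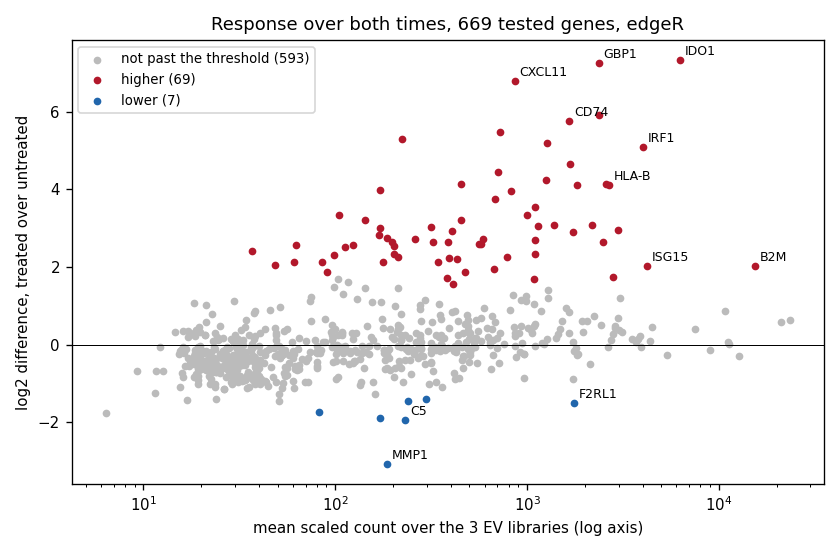
Log2 difference of treated over untreated EV libraries (vertical axis) against the mean scaled count of the 3 EV libraries (logarithmic horizontal axis), 1 point for each of 669 tested genes. The 69 genes called higher, in red, reach 7.32 for IDO1 and lie at low and high mean levels, whereas the 7 called lower, in blue, lie between -3.06 and -1.40.

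The promoters of the induced genes were read for the cores of both interferon elements, TTCNNNGAA for GAS and GAAANNGAAA for ISRE, on both strands. The windows, from RefSeq on GRCh38.p14, run from 250 bases before to 50 bases after the start, and genes with exactly 1 window in the table were used. Of the 69 genes called higher 40 had such a window, and an ISRE core stood in 22 of them (55%) and a GAS core in 9 (22.5%). Among 299 tested genes that were called neither higher nor lower, the shares were 5.69% and 8.7%, and among all 22114 symbols with 1 window 3.81% and 8.18%. Of the 7 genes called lower 5 had a window, with a GAS core in 2 and an ISRE core in 0. Either core was found in 70% of the windows of genes called higher and in 13.7% of those called neither. A match describes the letters only, and the 2 cores can overlap.

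**Figure D2:**
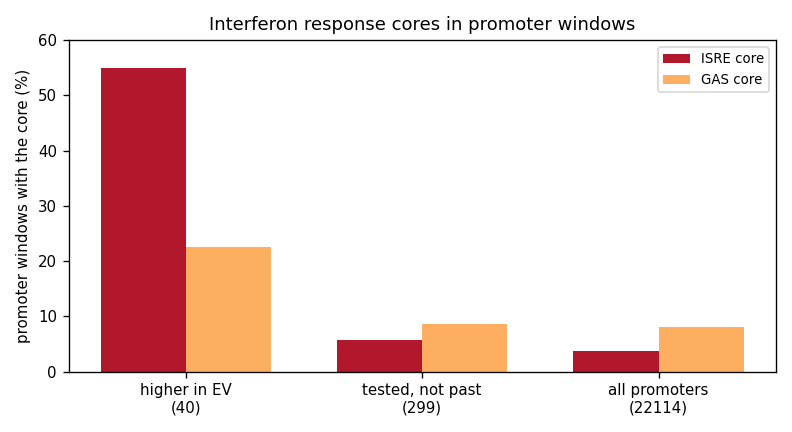
Percentage of promoter windows that hold an ISRE core (red) or a GAS core (orange), for 40 genes called higher, 299 tested genes called neither higher nor lower, and all 22114 symbols with 1 window in the RefSeq table. The ISRE bar stands at 55% for genes called higher and at 5.69% and 3.81% for the others.

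The 250 bases before the start are shown for IRF1 and for 5 other genes. These are the largest increases, among genes with 1 window, that hold a core in that stretch. The cores are matches of letters, and binding was not measured. All are written 5′ to 3′ on the gene's own strand, with the cores in capitals.
GBP1: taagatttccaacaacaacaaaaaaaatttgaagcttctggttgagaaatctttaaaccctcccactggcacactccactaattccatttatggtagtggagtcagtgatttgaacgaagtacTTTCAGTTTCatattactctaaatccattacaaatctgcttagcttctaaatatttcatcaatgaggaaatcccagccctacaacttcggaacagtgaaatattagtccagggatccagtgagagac
CXCL11: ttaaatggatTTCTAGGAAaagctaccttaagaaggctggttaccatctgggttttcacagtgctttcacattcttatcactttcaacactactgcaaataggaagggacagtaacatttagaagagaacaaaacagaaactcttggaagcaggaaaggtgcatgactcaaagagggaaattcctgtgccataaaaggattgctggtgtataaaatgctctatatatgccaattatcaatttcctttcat
CXCL10: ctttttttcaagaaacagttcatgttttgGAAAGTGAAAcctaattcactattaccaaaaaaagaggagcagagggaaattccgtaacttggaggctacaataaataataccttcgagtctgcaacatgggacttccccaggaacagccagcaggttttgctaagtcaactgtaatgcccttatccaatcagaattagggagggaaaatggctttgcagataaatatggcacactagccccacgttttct
IRF1: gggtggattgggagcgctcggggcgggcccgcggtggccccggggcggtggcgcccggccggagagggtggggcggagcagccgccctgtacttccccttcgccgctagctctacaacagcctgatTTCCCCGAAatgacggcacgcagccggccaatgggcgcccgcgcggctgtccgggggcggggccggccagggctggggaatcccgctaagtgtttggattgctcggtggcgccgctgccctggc
PSMB10: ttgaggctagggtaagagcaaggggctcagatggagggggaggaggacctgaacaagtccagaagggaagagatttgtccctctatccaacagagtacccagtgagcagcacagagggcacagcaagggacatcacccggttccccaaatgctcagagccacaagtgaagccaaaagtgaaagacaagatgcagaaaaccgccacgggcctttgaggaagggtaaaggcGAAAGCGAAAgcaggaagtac
IFITM1: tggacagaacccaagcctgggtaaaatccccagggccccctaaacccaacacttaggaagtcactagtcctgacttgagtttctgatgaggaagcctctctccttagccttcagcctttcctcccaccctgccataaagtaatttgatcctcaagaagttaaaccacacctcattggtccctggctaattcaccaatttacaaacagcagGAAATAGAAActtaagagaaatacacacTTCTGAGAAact
The stretches are chr1:89065209-89065458 (minus strand) for GBP1, chr4:76036071-76036320 (minus) for CXCL11, chr4:76023498-76023747 (minus) for CXCL10, chr5:132490774-132491023 (minus) for IRF1, chr16:67936851-67937100 (minus) for PSMB10 and chr11:313790-314039 (plus) for IFITM1, all on GRCh38.p14. The GBP1 core is an ISRE core on the opposite strand, beginning 127 bases before the start. The CXCL11 core (240 bases before the start) and the IRF1 core (124 bases) are GAS cores. The CXCL10 core (221 bases) and the PSMB10 core (21 bases) are ISRE cores. IFITM1 holds an ISRE core 40 bases and a GAS core 12 bases before its start.

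None of the receptor chains and JAK kinases was called, whereas some factors further along the pathway rose. IFNGR1 was at 188, 227 and 223 counts in the untreated, 24 h and 48 h libraries, and IFNGR2 at 818, 453 and 592. JAK1 stood at 326, 406 and 337 counts, and JAK2 at 196, 368 and 435, with a log2 difference of 1.04 (SE 0.51) that did not pass (adjusted p = 0.253 in edgeR). Of 12 receptor, kinase and STAT genes tested, 2 rose and 0 fell. STAT2, which pairs with other STATs and with IRF9, was among them at 422, 1151 and 1537 counts, a rise of 1.69 (SE 0.52) that was not called with total-count scaling, with limma or without the 48 h library. The median of this list was 0.05, beside -0.11 over all tested genes, of which 10.3% were called higher.

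Of 8 interferon regulatory factors tested, IRF1 and IRF9 rose, beside 10.3% of all tested genes. IRF1, the factor whose GAS core is printed above, had 169 counts without treatment, 5153 at 24 h and 6174 at 48 h. Its level was 27.3-fold higher at 24 h and 40.3-fold higher at 48 h, and the difference over both times was 5.08 (SE 0.67, adjusted p = 4.3e-12 in edgeR). IRF9, the DNA-binding partner of STAT2, had 122, 495 and 613 counts, a rise of 2.20 (SE 0.54) whose call ended without the 48 h library. IRF8, a factor of myeloid cells, was at 18, 6 and 9 counts and IRF5 at 50, 69 and 32, and neither passed. Both treated libraries stood far above the untreated one for IRF1 and IRF9 alike.

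The strongest responses belonged to IDO1, to the guanylate-binding proteins and to a set of chemokines. IDO1, the enzyme that breaks down tryptophan and so limits T cell growth, was at 56, 7385 and 10306 counts. Its level was 118-fold higher at 24 h and 203-fold higher at 48 h. All 3 guanylate-binding proteins on the panel, GTPases that attack the vacuoles of intracellular microbes, rose. GBP1 had 22, 3049 and 3691 counts, and its level was at least 124-fold and 185-fold higher, since the untreated count was no higher than the B cell and myeloid markers. GBP4 had 56, 3377 and 3392 counts and GBP2 had 50, 1282 and 2252. For GBP1 and GBP4 the treated libraries differed by less than 2-fold from each other, and for GBP2 the 48 h library was 2.17-fold above the 24 h library.

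**Figure D3:**
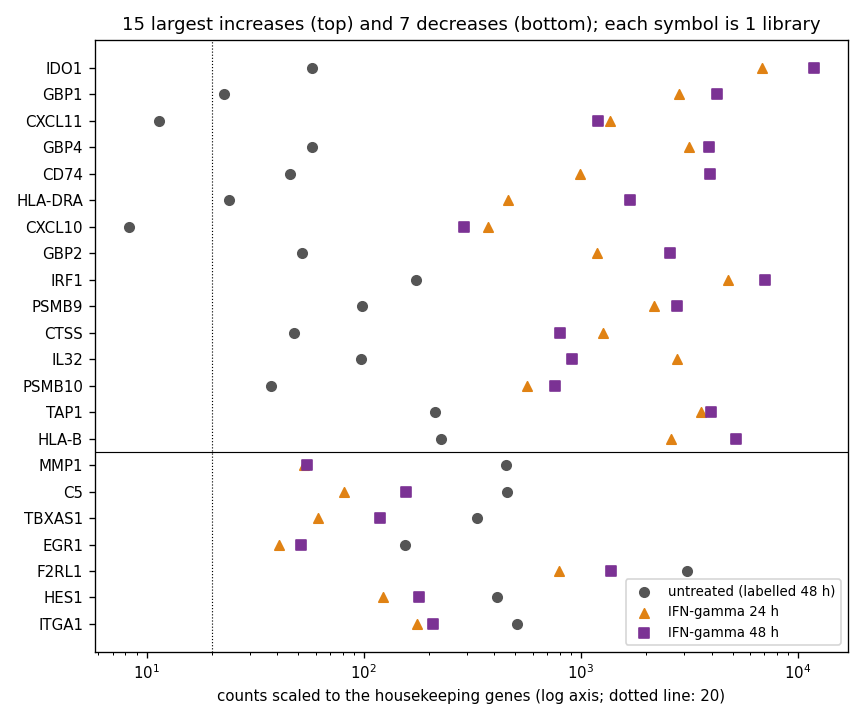
Counts scaled to the housekeeping genes (logarithmic axis) in the untreated (grey circles), 24 h (orange triangles) and 48 h (purple squares) EV libraries, 1 library per symbol type, for the 15 largest increases (above the line) and the 7 decreases called in EV. The treated libraries lie to the right of the untreated one for every increase and to its left for every decrease, and CXCL11 and CXCL10 start below the dotted line at 20.

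CXCL9, CXCL10 and CXCL11 are the ligands of CXCR3, the receptor that guides activated T cells, and all 3 rose. CXCL11 had 11, 1471 and 1050 counts, at least 68.3-fold higher at 24 h and at least 60.1-fold at 48 h, counted from the floor of 20. CXCL10 had 8, 401 and 253 counts, at least 18.6-fold and 14.5-fold higher. CXCL9 had 28, 249 and 99 counts, and its 48 h library was 2.04-fold below its 24 h library. In each case the 24 h level was the highest of the 3. The call for CXCL9 (2.57, SE 0.65) ended without the 24 h library.

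Of 19 other chemokine genes tested, 0 passed in either direction, beside 10.3% of all tested genes called higher, and their median was -0.14. The nearest to the threshold was CXCL3, a neutrophil attractant with 47, 159 and 133 counts and a difference of 1.62 (SE 0.61, adjusted p = 0.0655 in edgeR). This absence of calls depended on the setting. CXCL3 was called higher with the EV libraries alone, with TMM scaling, with limma and with either treated BTN1A1-labelled library left out. With total-count scaling CCL4 (-1.55), CCL18 (-1.50), CCL19 (-1.49) and CXCL12 (-1.28) were called lower. CXCL8, the main neutrophil chemokine, had 175, 249 and 193 counts, and CXCL1 had 248, 447 and 214. Among 20 cytokine and cytokine receptor genes tested 3 rose, beside 10.3% of all tested genes. IL32, a cytokine that acts on monocytes, had 94, 2977 and 799 counts and a rise of 4.24 (SE 0.61), and its 48 h library was 3.02-fold below the 24 h library. IL15, which sustains T and NK cells, had 52, 235 and 226 counts and a rise of 2.14 (SE 0.59), a call that ended with TMM, with limma and without either treated library. IL7R, the receptor chain for IL-7, had 166, 858 and 403 counts and a rise of 1.87 (SE 0.53) that was not called without the 24 h library.

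Among 23 checkpoint genes tested 3 rose, a share close to the 10.3% over all tested genes. Beside IDO1 these were the PD-1 ligands. CD274 (PD-L1) had 18, 64 and 92 counts and rose by 2.13 (SE 0.60, adjusted p = 0.00461 in edgeR), from a level no higher than the immune markers. PDCD1LG2 (PD-L2) had 58, 322 and 244 counts and rose by 2.26 (SE 0.58). The call for CD274 ended with DESeq2 and without the 48 h library, and that for PDCD1LG2 without either treated library. TNFRSF14, the receptor of BTLA on lymphocytes, had 95, 234 and 283 counts, a difference of 1.45 (SE 0.56, adjusted p = 0.0779). CD47, which signals to macrophages not to engulf the cell, had 1563, 4184 and 3149 counts, a difference of 1.21 (SE 0.53, adjusted p = 0.164). These latter 2 did not pass edgeR's test, although both treated libraries were at least 2-fold above the untreated one.

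Most class I antigen presentation genes rose. Of 17 tested, 13 rose and 0 fell, beside 10.3% of all tested genes called higher and 1.05% lower. Their median was 2.13. The immunoproteasome subunits, which replace constitutive subunits and favour peptides that class I molecules bind, all rose. PSMB9 had 95, 2346 and 2414 counts, PSMB10 had 36, 608 and 663, and PSMB8 had 353, 2986 and 2971. PSMB5, a constitutive proteasome subunit, was at 1837, 1844 and 1468 counts with a difference of -0.17 (SE 0.49). Beyond PSMB5, TAPBP, MICB and MICA were also not called.

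The peptide transporter chains also rose, TAP1 from 206 counts to 3850 and 3462, and TAP2 from 285 to 1616 and 1302. Among the heavy chains, HLA-B had 219, 2801 and 4540 counts and rose by 4.10 (SE 0.62). HLA-C had 126, 592 and 908 counts, HLA-E had 535, 3352 and 3345, and HLA-F had 25, 91 and 126, a call that ended without either treated library. B2M, the light chain shared by all of them, had 4908, 16630 and 22469 counts and was the most abundant transcript of the panel at 48 h. Its rise of 2.02 (SE 0.63, adjusted p = 0.0123 in edgeR) was not called with TMM or total-count scaling or without the 48 h library. TAPBP, the tapasin that loads peptides, had 411, 1105 and 931 counts and did not pass (1.29, SE 0.51). Probes of the HLA genes can bind related copies, so single HLA genes are uncertain.

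Class II presentation genes, which most epithelial cells do not express at rest, also rose. Of 12 tested, 8 rose and 0 fell, beside 10.3% of all tested genes called higher and 1.05% lower. Their median was 2.56. CD74, the invariant chain, had 44, 1068 and 3441 counts and was 21.7-fold higher at 24 h and 86.3-fold at 48 h. HLA-DRA, the alpha chain of HLA-DR, had 23, 495 and 1473 counts and was at least 19.3-fold and 70.7-fold higher, counted from a level no higher than those markers. HLA-DPA1 had 15, 111 and 344 counts, at least 5.15-fold and 19.7-fold higher. HLA-DMA and HLA-DMB, which exchange peptides on class II molecules, had 53, 247 and 434 counts and 14, 95 and 185 counts.

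For some class II genes the 24 h level was closer to that without treatment than to the 48 h level. HLA-DPB1 had 26, 44 and 199 counts, HLA-DQB1 had 9, 25 and 68, and HLA-DRB1 had 43, 60 and 170. The untreated and 24 h counts of HLA-DQB1 were near or under the level of the immune markers. HLA-DRB1 did not pass (1.48, SE 0.61, adjusted p = 0.116 in edgeR), although it was called with the EV libraries alone. The calls for HLA-DPB1, HLA-DQB1, HLA-DMA and HLA-DMB ended without the 48 h library, and the first 2 also with TMM, DESeq2 and limma, that for HLA-DQB1 with a minimum of 50 too. Between the treated libraries, 5.23% of all 631 genes compared were at least 2-fold higher at 48 h than at 24 h and 1.11% lower, with no test. Of 13 class II genes compared, 8 were at least 2-fold higher at 48 h and 0 lower, with a median of 1.26. CTSS, a cathepsin that trims the invariant chain, ran the other way with 46, 1366 and 700 counts. HLA-DOA (94, 78 and 62 counts) and HLA-DOB (42, 41 and 28), which form a brake on HLA-DM, were not called.

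**Figure D4:**
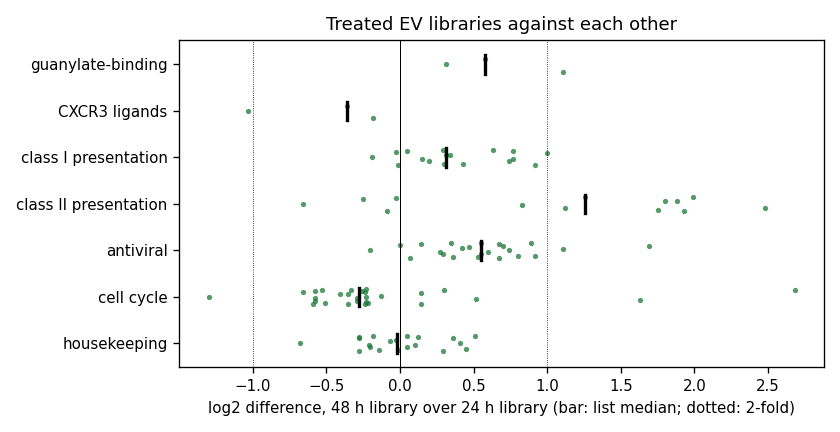
Log2 difference of the 48 h over the 24 h EV library (horizontal axis) for the genes of 7 lists, 1 point per gene, with a bar at each list's median. The class II median of 1.26 lies beyond the dotted 2-fold line, the class I and antiviral medians are 0.31 and 0.55, and that of the housekeeping genes is -0.02.

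Antiviral genes known from the interferon alpha and beta response made up the largest group of increases. Of 23 tested 19 rose and 0 fell, beside 10.3% of all tested genes called higher and 1.05% lower. The median of the list was 2.65. IFITM1, a membrane protein that blocks virus entry, had 150, 1820 and 3185 counts and rose by 4.10 (SE 0.61). IFI35 had 74, 1055 and 1251 counts, APOL6 had 71, 955 and 945, and MX1, a GTPase that traps viral capsids, had 52, 337 and 505. The partners PARP9 and DTX3L, which modify chromatin proteins with ADP-ribose and ubiquitin, had 222, 1920 and 1874 counts and 317, 2139 and 2542 counts. Their rises were close, at 3.09 (SE 0.57) and 2.90 (SE 0.56).

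OAS1 and OAS3, which make the messenger that activates RNase L, rose by 2.60 and 2.26. IFIT3, which binds viral RNA with its relatives, had 185, 1373 and 1690 counts, a rise of 3.06 (SE 0.57). IFIT1 had 119, 267 and 216 counts, which did not pass (adjusted p = 0.32 in edgeR). IFI27 had 29, 123 and 323 counts and was 3.24-fold higher at 48 h than at 24 h. ISG15, a ubiquitin-like modifier that also stabilises a brake on the interferon receptor, was already at 1342 counts without treatment and had 5087 and 5710 with it, a rise of 2.02 (SE 0.55). The calls for IFI27 and ISG15 ended without the 48 h library. The kinase EIF2AK2 (501, 1110 and 785 counts) was not called.

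Of 13 sensors and inflammasome genes tested, 4 rose, beside 10.3% of all tested genes. IFI16, a DNA sensor, had 138, 1255 and 1491 counts, and IFIH1, the RNA sensor MDA5, had 67, 547 and 685. TLR3, which senses double-stranded RNA, had 21, 142 and 240 counts, and CASP1, the inflammasome protease, had 32, 210 and 242. Their rises lay between 2.82 and 3.33. The calls for TLR3 and CASP1 ended without the 48 h library. MYD88, the adaptor of most Toll-like receptors, was at 377, 654 and 420 counts and did not pass. Among 20 cell death genes tested 2 rose, a share close to the 10.3% over all tested genes. They were CASP1 and TNFSF10, the latter the ligand TRAIL at 14, 88 and 80 counts (2.57, SE 0.62). CASP8, the protease that TRAIL receptors recruit, had 86, 161 and 201 counts and did not pass (1.09, SE 0.58).

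Of 5 genes that damp cytokine signalling, 3 rose, namely SOCS1, ISG15 and DUSP1, beside 10.3% of all tested genes. SOCS1, an inhibitor of JAK kinases, had 26, 237 and 78 counts, a rise of 2.52 (SE 0.65) that was not called without the 24 h library. Its 48 h level was 2.46-fold below its 24 h level. DUSP1, a phosphatase of MAP kinases, had 145, 446 and 506 counts, a rise of 1.72 (SE 0.52) that was not called with total-count scaling or without the 48 h library. NFKBIA, the inhibitor of NF-kB, had 953, 2481 and 1318 counts, and TNFAIP3 had 24, 47 and 39, and neither passed.

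Of 20 NF-kB pathway genes tested, ICAM1 alone was called, and it also stands in the adhesion list. Over all tested genes, 10.3% were called higher. ICAM1, the adhesion molecule that T cells bind through LFA-1, had 130, 1524 and 1527 counts, a rise of 3.55 (SE 0.58, adjusted p = 4.9e-08 in edgeR). LAMB3, a chain of the basement membrane laminin of epithelia, had 226, 1038 and 725 counts, a rise of 1.94 (SE 0.52). TYMP, the thymidine phosphorylase, had 103, 363 and 516 counts, a rise of 2.12 (SE 0.55). Of the 69 genes called higher, 67 stood in at least 1 list. The other 2 were TMEM140, with 37, 154 and 332 counts, and PLA1A, a phospholipase, with 46, 205 and 320. The calls for TYMP, TMEM140 and PLA1A ended without the 48 h library, and that for LAMB3 without the 24 h library.

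**Figure D5:**
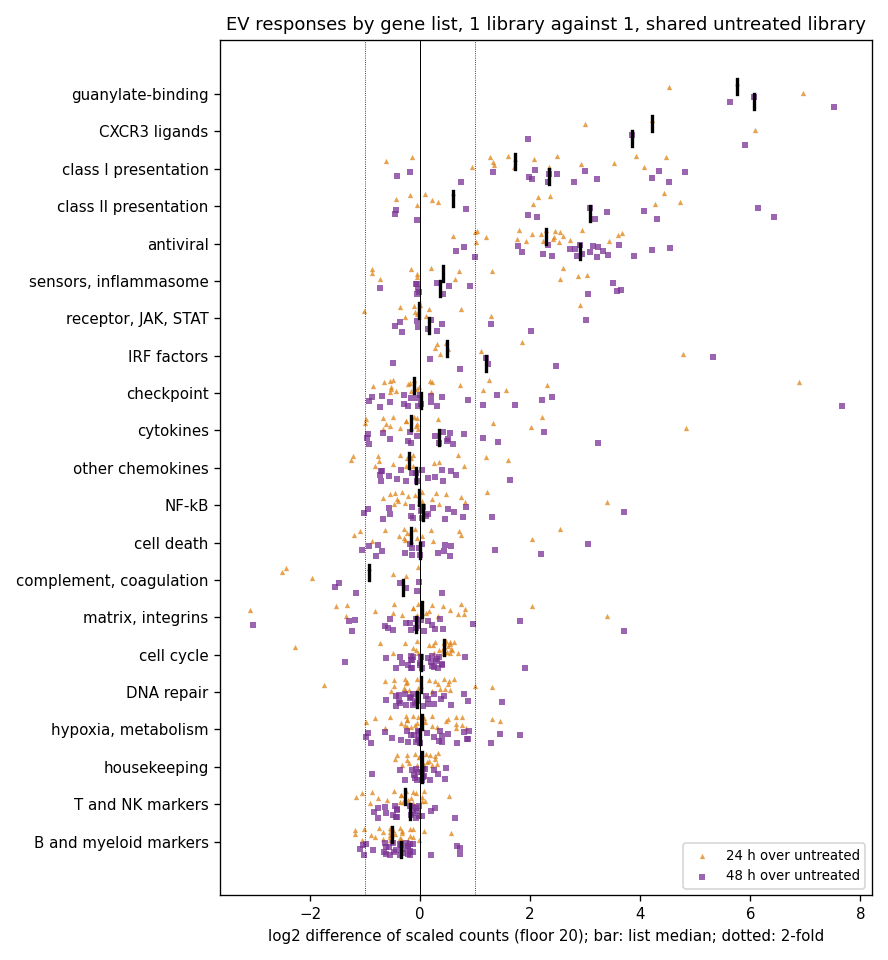
Log2 difference of scaled counts in the 24 h (orange triangles) and 48 h (purple squares) EV library over the untreated one, 1 point per gene, for 21 gene lists with a bar at each median. The guanylate-binding proteins have medians of 5.75 and 6.06 and the antiviral genes 2.28 and 2.90, the class II median is 0.60 at 24 h and 3.08 at 48 h, and the housekeeping medians are 0.03 and 0.04.

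Decreases were fewer and smaller, and 7 genes were called. MMP1, a collagenase of the interstitial matrix, had 434, 57 and 48 counts and was 8.51-fold lower at 24 h and 8.19-fold lower at 48 h. It fell by 3.06 on the log2 scale (SE 0.53, adjusted p = 2.59e-07 in edgeR). It alone of the 7 was called in all 12 other settings tried. ITGA1, the collagen-binding integrin chain, had 491, 190 and 182 counts (-1.40, SE 0.47). Its call ended with DESeq2, with limma and without either treated library. The adhesion and matrix list as a whole had 24 genes tested, 2 higher and 2 lower, beside 10.3% and 1.05% of all tested genes.

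In the list for complement, coagulation and related lipid mediators, 3 of 9 genes tested fell and 0 rose. Over all tested genes 1.05% were called lower, 7 genes, a number that was 98 with total-count scaling. Among the 3 in this list, C5, the complement component that starts the lytic complex, had 442, 87 and 137 counts (-1.95, SE 0.49). TBXAS1, the thromboxane synthase, had 320, 66 and 104 counts (-1.88, SE 0.51). F2RL1, the protease-activated receptor PAR2, had 2981, 858 and 1199 counts (-1.51, SE 0.46). Of these, C5 alone is a complement protein. All 3 were lowest at 24 h, and all 3 calls ended without the 24 h library, that for F2RL1 also with TMM, DESeq2 and limma.

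EGR1, an early response transcription factor, had 149, 44 and 45 counts (-1.74, SE 0.54), and HES1, a repressor induced by Notch, had 398, 133 and 157 (-1.45, SE 0.46). Both calls ended without either treated library, and that for HES1 also with TMM, DESeq2, limma and a minimum of 50. FLT1, a VEGF receptor, had 85, 32 and 30 counts and did not pass (-1.46, SE 0.55, adjusted p = 0.068 in edgeR). FLT1 was called lower with the EV libraries alone (-1.46), with total-count scaling (-2.01) and with either treated BTN1A1-labelled library left out. At 24 h alone CDKN2B, an inhibitor of CDK4 and CDK6, was also low, with 282, 65 and 338 counts. Its difference over both times was -0.39 and was not called, and without the 48 h library it was -2.27. For the 7 genes called lower, untreated counts ran from 149 to 2981. The untreated library had the highest summed level of immune markers, and the part of this in the decreases was not tested.

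Many other lists on the panel held no call, beside 10.3% of all tested genes called higher and 1.05% called lower. Of 29 cell cycle genes tested 0 passed, with a median of 0.18. The extremes were CCNA1 (53, 72 and 181 counts) and CCNE1 (99, 106 and 35), cyclins that partner CDK2. CCNA1 was called higher with either treated BTN1A1-labelled library left out. Of 27 DNA repair and chromatin genes 0 passed, although NBN, a double-strand break sensor, had 592, 1642 and 1492 counts (1.40, SE 0.51, adjusted p = 0.0577 in edgeR). KAT2B, a histone acetyltransferase, had 531, 178 and 313 counts (-1.08, SE 0.46) and did not pass. Of 31 hypoxia and metabolism genes, 13 PI3K pathway genes and 10 epithelial to mesenchymal transition genes, 0 passed. For the lists of 24 genes or fewer in this paragraph, 0 calls higher is hard to tell from the 10.3% over all tested genes. For calls lower, at 1.05% of all tested genes, the same holds for every list here. In the 20 housekeeping genes 0 passed, and the marker lists of lymphoid, myeloid and stromal cells likewise had 0 calls, with 24 T and NK, 31 B cell and myeloid and 9 vessel and fibroblast genes tested. Without adjustment, 113 genes had p under 0.05 in the same edgeR test, 89 higher and 24 lower.

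Between the treated libraries, 33 of 631 genes (5.23%) were at least 2-fold higher at 48 h and 7 (1.11%) at least 2-fold lower, with no test. Of the 69 genes called higher, 13 were at least 2-fold higher at 48 h than at 24 h, 7 of them class II genes, and 3 were at least 2-fold lower: IL32, SOCS1 and CXCL9. The largest late difference was that of ATF3. This factor of the stress response, also among the 69, had 69, 117 and 690 counts, 7.27-fold more at 48 h than at 24 h. Its call over both times (2.64, SE 0.56) ended in 5 of 12 other settings: TMM scaling, DESeq2, limma, a minimum of 50 and without the 48 h library.

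AREG, a ligand of the EGF receptor, had 1042, 530 and 2970 counts, below the untreated level at 24 h and above it at 48 h. PCK2, the mitochondrial PEP carboxykinase, had 157, 100 and 501 counts, and CEBPB, a factor of inflammatory gene control, had 493, 512 and 1581. The amino acid transporters SLC7A5 (381, 275 and 847 counts) and SLC1A5 (741, 734 and 1842) showed the same order. None of AREG, PCK2, CEBPB, SLC7A5 and SLC1A5 was called over both times. HEY1, a Notch target like HES1, had 535, 571 and 1650 counts, whereas HES1 was low in both treated libraries.

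The response was also set against that of the libraries labelled BTN1A1, with the difference tested in the same edgeR fit. It differed for 30 of 669 genes (4.48%), and the log2 response was higher in EV for 28 of them and lower in EV for 2. IDO1 had 34, 26 and 37 counts in the libraries labelled BTN1A1, against its large rise in EV, a difference in response of -7.19 (SE 0.88). IRF1 rose in both, by 2.57 in the libraries labelled BTN1A1, and still differed by -2.51 (SE 0.75). The 2 with a lower response in EV were MMP1 and IRF8. MMP1, which fell in EV, had counts of 7, 9 and 12 in the BTN1A1-labelled libraries, under the level of the immune markers, so no response could be measured there. IRF8 had 58, 167 and 149 counts there and was no higher than the immune markers in EV. The BTN1A1-labelled libraries also went against the PC3 label, as given above, so the vector and the origin of the cells cannot be told apart.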

How the data were processed

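The deposited counts of barcodes per probe, 1 column per sample for 770 probes, were used as given. All 4620 values were whole numbers. How the authors made these counts is not stated in any label or header read, and no control probes were used, so no background was subtracted. Total RNA was extracted with Trizol and a column kit, per the labels' protocols.

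Samples were grouped by the treatment label, 1 per group. Scaling used the geometric mean of 20 housekeeping genes. A gene was tested where 2 or more of the 6 libraries reached 20 scaled counts, which kept 669 genes and left out 101. The quasi-likelihood test of edgeR 4.0.16 under R 4.3.3 was used, with vector, treatment and their product as terms and Benjamini-Hochberg adjustment at 0.05. It had 2 residual degrees of freedom and a common dispersion of 0.078. The test was also run on counts simulated at that dispersion, with 24 h and 48 h as exact repeats. That run cannot show how the test fares where the 2 times differ. Each SE is the log2 difference over the square root of the F statistic, so it restates the test. Single-library comparisons used a floor of 20 and a fold of 2. Total counts limit precision through counting error only.

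The alternatives were TMM and total-count scaling, DESeq2 1.42.0, limma 3.58.1 on floored values, other minimums and floors, the EV libraries alone, and each library left out. Genes named are the largest increases and decreases, the largest members of each list, the members of interferon, HLA, chemokine and checkpoint lists, and the largest single-library differences. Further list members serve as examples and were picked after seeing their values. The samples and lists were chosen with earlier results of these data known. Some genes picked by this rule are not reported here. Of the 770 names, 756 matched RefSeq symbols of GRCh38.p14.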

Additional observations from a re-analysis of the deposited data

Results flagged for a closer look

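The response to interferon-gamma differed between vectors in edgeR's test of the difference itself for the following genes, given as the log2 response in the libraries labelled BTN1A1 minus that in EV. The difference was -7.19 for IDO1, -5.84 for GBP1, -5.76 for CXCL11, -5.67 for HLA-DRA and -5.25 for GBP4. It was fitted as 3.85 for MMP1, which fell in EV and had 7, 9 and 12 counts with the BTN1A1 label, and as 2.90 for IRF8, which was at 18, 6 and 9 counts in EV. Counts this low are at or under the level of the immune markers, so these 2 values do not measure a difference between 2 responses. The libraries labelled BTN1A1 were near that level for IDO1, GBP1, CXCL11, HLA-DRA and GBP4 too, at 5 to 37 counts. AREG lay on opposite sides of the untreated EV library at the 2 times, with a log2 difference of -1.14 at 24 h and a higher level at 48 h. That difference between times was not tested.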

How the results depend on the processing

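No paired analysis was possible because the labels carry no replicate numbers and each group is 1 library. In the pooled test, 39 of the 69 increases were called in all 12 other settings, 20 ended in 1 or 2 and 10 in 3 or more. Of the 7 decreases, MMP1 was called in all 12, 3 ended in 1 or 2 and 3 in 3 or more. Leaving out in turn each library except the untreated EV one, without which EV has no comparison, gave 43 to 75 genes higher and 1 to 16 lower, with 43 higher and 5 lower without the EV 48 h library and 61 higher and 1 lower without the EV 24 h library. The genes called lower numbered 16 with the EV libraries alone, 98 with total-count scaling, and 4 with DESeq2 and with limma. For the difference between vectors, 15 genes passed with TMM scaling, and 14 to 37 with a treated library of either vector left out. At 24 h, the genes at least 2-fold lower numbered 21 with a floor of 50, 24 with TMM and 127 with total-count scaling. At 48 h, they numbered 38 with a floor of 10, 9 with a floor of 50, 15 with TMM and 133 with total-count scaling. With 1 library per arm, a library left out leaves an arm whose spread is assumed to be that of the others. No difference called in the pooled test reversed its direction. Some named differences that the pooled test did not call, such as those of AREG, CDKN2B and HEY1, changed sign without a treated EV library. Those of CXCL1 and CXCL8 changed sign with total-count scaling. Genes near 20 counts cannot be told from background at this depth.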
